A study of Mus musculus with 7 samples.

Results

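The H3K27ac peaks that chondrocytes of wild-type (WT) mice and of mice lacking the Sox9 enhancers E160 and E308 had in common were compared in height, width and position. Each WT peak was paired with each E160Δ/Δ E308Δ/Δ peak that overlapped it by at least 1 bp on chromosomes 1 to 19 of the mm9 build, which gave 24525 pairs from 32635 WT and 24678 deletion peaks. The pairs held 20526 of the WT peaks (62.9%) and 24410 of the deletion peaks (98.9%). The 6 peak lists analysed came from a series of 7 samples. Both libraries used here were H3K27ac ChIP-Seq of primary rib chondrocytes from newborn mice, freed with collagenase and kept within 2 passages. Both genotypes were littermates obtained by intercrossing mice heterozygous for both deletions, in a line made from C57BL/6J embryos by consecutive rounds of CRISPR/Cas9 editing, and mice of either sex were used. The deletion removes E160 and E308 from both alleles in every tissue, not only in cartilage. Each genotype had 1 library, and how many animals went into it is not given in the sources used here, so the comparison rests on single libraries, without replicates and without p-values.

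H3K27ac is an acetylation of histone H3 that marks active promoters and enhancers, and its peaks at promoters usually lie over the first nucleosomes of the transcribed gene. Sox9 is the transcription factor that directs mesenchymal cells into cartilage and, with Sox5 and Sox6, activates cartilage matrix genes such as Col2a1, which encodes type II collagen, and Acan, which encodes the proteoglycan aggrecan. Sox9 itself is controlled by enhancers spread over a long gene desert on its upstream side, of which E160 and E308 are members.

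The sequences of a few pairs named below are given first, for reference. All are 200 bases of mm9, 5′ to 3′. For Sox9, Col2a1, Nrp2 and Tsku they end at the base before the transcription start site (TSS), on the strand of the gene, at chr11:112643338-112643537 (plus strand), chr15:97835156-97835355 (minus strand), chr1:62749659-62749858 (plus strand) and chr7:105509839-105510038 (minus strand). Sox9 and Col2a1 are the cartilage genes of interest, and Nrp2 and Tsku had the lowest and the highest promoter ratio of enrichment among the one-to-one pairs with a −log10 q of at least 10 in both lists, the set to which the other extremes shown here also belong. The other sequences are on the plus strand and centred on WT summits away from promoters. They are an intergenic region at −660 kb from the Sox9 TSS, at chr11:111983196-111983395, the distal regions of that set with the highest and the lowest ratio of fragments, in an intron of Tgfbr3 at chr5:107586748-107586947 and in an intron of the gene model Gm20388 near Klhdc4 at chr8:124356605-124356804, and an intergenic region near B4galnt4 at chr7:148233921-148234120, which had the lowest distal ratio of enrichment in that set. Capitals mark matches on either strand to ACAATG (the core of a SOX site), TGANTCA (AP-1), TGTGGT (RUNX), CCAAT (NF-Y) and GGGCGG (SP and KLF factors), and a sequence without capitals holds none of them.
Sox9: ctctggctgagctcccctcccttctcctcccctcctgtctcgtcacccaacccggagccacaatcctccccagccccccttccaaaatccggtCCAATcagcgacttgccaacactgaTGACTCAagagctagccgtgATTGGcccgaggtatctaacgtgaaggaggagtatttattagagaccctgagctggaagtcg
Col2a1: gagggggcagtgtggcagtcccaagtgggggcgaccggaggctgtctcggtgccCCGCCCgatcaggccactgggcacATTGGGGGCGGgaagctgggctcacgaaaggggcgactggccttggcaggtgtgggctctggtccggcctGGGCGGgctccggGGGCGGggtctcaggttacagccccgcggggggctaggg
Nrp2: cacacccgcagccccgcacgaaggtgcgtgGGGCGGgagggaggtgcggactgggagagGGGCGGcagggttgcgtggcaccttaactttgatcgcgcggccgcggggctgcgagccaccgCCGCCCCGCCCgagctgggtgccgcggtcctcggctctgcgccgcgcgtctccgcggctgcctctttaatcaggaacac
Tsku: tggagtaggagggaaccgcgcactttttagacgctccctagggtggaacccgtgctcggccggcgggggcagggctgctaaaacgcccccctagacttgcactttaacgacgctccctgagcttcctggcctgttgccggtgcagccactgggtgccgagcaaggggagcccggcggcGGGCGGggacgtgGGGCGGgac
Sox9 −660 kb: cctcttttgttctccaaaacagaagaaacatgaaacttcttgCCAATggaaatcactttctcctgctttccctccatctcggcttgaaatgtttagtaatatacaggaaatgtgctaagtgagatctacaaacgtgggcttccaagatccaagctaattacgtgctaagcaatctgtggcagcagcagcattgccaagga
Tgfbr3: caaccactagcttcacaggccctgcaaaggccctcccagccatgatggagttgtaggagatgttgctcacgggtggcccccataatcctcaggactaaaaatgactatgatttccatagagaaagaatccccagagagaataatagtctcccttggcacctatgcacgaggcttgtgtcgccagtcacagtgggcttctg
Klhdc4: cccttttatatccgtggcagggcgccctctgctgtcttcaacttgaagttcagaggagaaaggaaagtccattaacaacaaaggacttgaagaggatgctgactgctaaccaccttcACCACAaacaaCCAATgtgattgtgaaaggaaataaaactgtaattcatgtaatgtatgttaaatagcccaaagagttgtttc
B4galnt4: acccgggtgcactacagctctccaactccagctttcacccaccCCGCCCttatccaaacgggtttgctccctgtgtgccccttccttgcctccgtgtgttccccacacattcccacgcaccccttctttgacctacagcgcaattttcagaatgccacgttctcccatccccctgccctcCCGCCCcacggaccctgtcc

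The Sox9 window held matches to CCAAT and TGANTCA, that of Col2a1 to CCAAT and GGGCGG, and those of Nrp2, Tsku and B4galnt4 to GGGCGG. Over the 300 bases around the WT summits of all pairs, 9.22% held ACAATG, 6.17% TGANTCA, 14.7% TGTGGT, 21.6% CCAAT and 30.4% GGGCGG, so each of these words is common and a match is no evidence of a bound factor.

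The height of a peak was read in 2 ways. The authors' fold enrichment compares the pile-up of DNA fragments at the summit with the local background, and the enrichment together with its −log10 p-value could be solved for both. The lists were called against input reads, so this background is a rate of input reads and not ChIP signal. A background given for WT or for the deletion library is that at the summit in the respective list. Only whole numbers of fragments over the summit were tried. In 100% of the peaks of both lists, one of them returned the −log10 p-value within 0.01. WT peaks had 17 to 354 fragments (median 42) and deletion peaks 16 to 300 (median 39). The background rate of the caller and its scaling to the input library gave a mean coverage of 3.82 fragments per base in WT and 3.68 in the deletion library, 0.963 of WT, so that the libraries were of nearly equal depth. Intervals given for a ratio of fragments are exact binomial 95% intervals, which cover counting error only and treat fragments as independent.

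The targeted enhancers checked the labels. WT had a peak of 2019 bp with an enrichment of 18.99 and 114 fragments at E160, at −161 kb from the Sox9 TSS, and one of 1638 bp with 14.4 and 77 fragments at E308, at −309 kb. The deletion list had a peak at neither, where the median ratio of all pairs would have given 72.8 and 49.2 fragments. Both enhancers are therefore outside the pairs.

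Deletion peaks were lower than the WT peaks they overlapped across the genome. The median ratio of deletion to WT was 0.674 for enrichment, 0.639 for fragments and 0.656 for width. Enrichment was higher in the deletion library in 1302 pairs (5.31%) and fragments in 290 pairs (1.18%). With 1 library a side, a lower yield of the immunoprecipitation and lower acetylation cannot be told apart in these ratios. Below, every ratio was therefore divided by the median ratio of all pairs, and is called scaled, so that 1, or 0 on the log2 scale, is the typical pair, and differences are relative to that shift. A pair was counted as higher or lower when its scaled ratio was past 1.5-fold, with no test behind the count. Of all pairs, 1203 were higher (4.91%) and 2704 were lower (11%). By fragments, 516 were higher (2.1%) and 2322 were lower (9.47%).

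**Figure D1:**
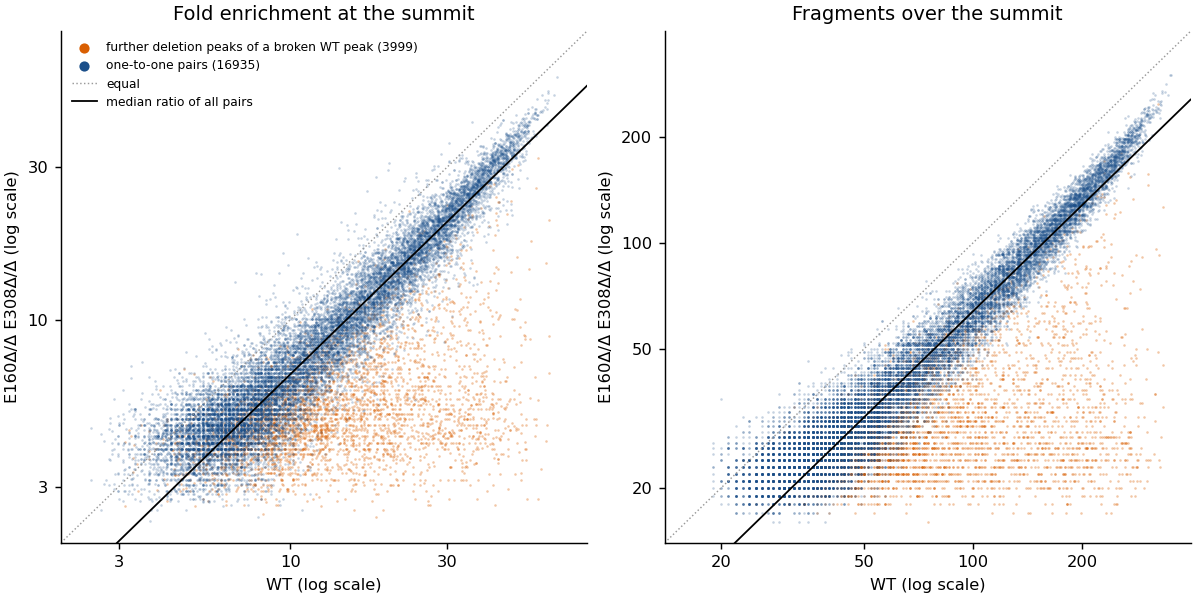
Fold enrichment in the WT (x axis) and the deletion library (y axis), and the fragments over the summit in the same way, on log axes. Drawn are the 16935 one-to-one pairs (blue) and 3999 further deletion peaks of broken WT peaks (orange). The other pairs, among them the strongest partners of broken WT peaks, are not drawn. A solid line marks the median ratio of all 24525 pairs and a dotted line equal values. One-to-one pairs hug the line of the median ratio (0.674 for enrichment and 0.639 for fragments), and most of the drawn pairs far below it are pieces of broken WT peaks.

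Most of the lower pairs were pieces of WT peaks that had several deletion partners. A WT peak had 1 deletion partner in 17119 cases, 2 in 2942, 3 in 363, 4 in 84, 5 in 13, 6 in 4 and 8 in 1, and 115 deletion peaks overlapped 2 WT peaks. The WT peaks that met several deletion peaks were broad, with a median width of 1054 bp at 1 partner, 1907 bp at 2, 3056 bp at 3 and 4618 bp at 4. The share broken in this way was 0% of the paired WT peaks under 500 bp wide, 19.7% of those of 1 to 2 kb and 66% of those over 5 kb (241 of 365). The WT value in such a pair is that of the one WT summit, which is set against each piece in turn. Among the 3999 pairs whose deletion peak was not the strongest partner of its WT peak, 2205 were lower (55.1%), and among the 7590 pairs that were not one-to-one, 2281 were (30.1%). Of the 16935 one-to-one pairs (69.1% of all), 945 were higher (5.58%) and 423 were lower (2.5%), and after scaling by their own median 744 were higher and 555 lower, so these showed no excess of lower pairs. A WT peak whose signal falls under the threshold in places breaks and leaves the one-to-one set, so the set holds fewer lower pairs by construction. Their median scaled log2 ratio was 0.05 for enrichment and for fragments. The strongest partner of each WT peak, called leading here, is the highest of the candidates by construction. Of the 20526 leading pairs, 1179 were higher (5.74%) and 499 were lower (2.43%), and by fragments 512 (2.49%) and 191 (0.931%).

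The WT peak with the most deletion partners was one of 13878 bp over the body of Col2a1, at chr15:97809563-97823440, chosen after its values were seen. Its summit, in a coding exon of Col2a1, had an enrichment of 9.43 and 50 fragments in WT. It met 8 deletion peaks with 22 to 39 fragments, the strongest of which had an enrichment of 7.74 and a scaled log2 ratio of 0.28. Acetylation along the Col2a1 body was thus present in both libraries and was called as 1 peak in WT and as 8 peaks in the deletion library.

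Most pairs at the edge of the overlap rule were weak. The smallest overlap was 1 bp, between a WT peak with an enrichment of 5.60 and a deletion peak of 3.30, and 60 pairs overlapped by less than 50 bp, with a median of 32 fragments in WT (20 to 254) and 22 in the deletion library (17 to 206). On the other side, 30 unpaired WT peaks lay within 50 bp of a deletion peak, the nearest at 1 bp with an enrichment of 4.50, and their median was 24.5 fragments (19 to 48). The 12109 WT peaks without a partner had a median of 27 fragments, against 69 for those in pairs. At the median ratio, a WT peak needs 25.04 fragments to reach the 16 of the lowest deletion peak. The pairs therefore hold few weak WT peaks, 458 of them under that number of fragments, and every statement here is about places that passed the caller in both libraries.

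Among one-to-one pairs, the ratio of fragments spread less than the counting SD. The SD of the log2 ratio of fragments was 0.25, and the SD expected from counting alone was 0.29. The same values were 0.20 and 0.24 at promoters and 0.28 and 0.33 at distal pairs. Among pairs with at least 100 deletion fragments, where counting is most precise, they were 0.12 and 0.16. The summit is the highest point of a peak, so the counting SD is a yardstick and not an exact expectation. The spread lay below it in each of these sets, so the yardstick is too wide to show that no pair differed. The 95% interval of the fragment ratio left out the median ratio of the one-to-one pairs in 1.5% of them, 132 above and 122 below. That is fewer than the level of the interval allows. An interval that includes the median, here and below, therefore does not show that a pair was unchanged. Across all pairs it left out their median in 10.2%, 341 above and 2167 below. The log2 values of the 2 libraries had a Pearson r of 0.942 for enrichment and 0.967 for fragments over the one-to-one pairs, and of 0.824 and 0.848 over all pairs. These are correlations across peaks of 2 libraries, and peaks are not independent replicates.

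The calls by enrichment followed the local background more than the fragments. Of the 945 one-to-one pairs higher by enrichment, 323 (34.2%) were also higher by fragments. Their local background, which comes from input reads, had a median of 4 at the WT summits and 2.43 at the deletion summits. It was over 10% higher at the WT summit in 72.4% of them. Of the 423 lower pairs, 66 (15.6%) were also lower by fragments, and the background had a median of 2.36 at the WT summits and 4 at the deletion summits. It was over 10% higher at the deletion summit in 87.2% of these and at the WT summit in 0%. The enrichment divides by this background, so a difference of background between the summits of a pair can alone move it past the fold. The series lists a single input sample. A difference of background within a pair is one between summit positions and is not shown to be one between the genotypes. By fragments, 432 one-to-one pairs were higher (2.55%) and 108 were lower (0.638%).

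The pairs furthest from the median show this by name. They were taken from the 10251 one-to-one pairs with a −log10 q of at least 10 in both lists. The promoter with the highest ratio was that of Tsku, which encodes the secreted proteoglycan tsukushi. Its enrichment was 8.15 in WT and 13.9 in the deletion library (log2 1.33), with 106 and 75 fragments and a background of 7 and 2.55. In fragments its scaled ratio was 1.11 (95% interval, 0.81–1.503). Next came Pigm, a mannosyltransferase of GPI anchor synthesis, with enrichments of 5.50 and 9.06 and 80 and 69 fragments, and Cul1, the scaffold of SCF ubiquitin ligases, with 19.96 and 30.9 and 229 and 172 fragments. The promoter shared by the splicing factor gene Srsf2 and Mfsd11, and those of Hist1h3e, a histone H3 gene of a near-identical family whose reads may be shared among copies, Pip4k2a, Calr3 and 2700081O15Rik followed, with log2 ratios from 1.19 to 1.13. In all 8 the background at the WT summit was the higher, at 4 to 8 against 2.36 to 4. The intervals of the fragment ratio included the median in each of them.

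The lowest promoter was that of Nrp2, a co-receptor of semaphorins and VEGF. Its enrichment was 23.9 in WT and 5.61 in the deletion library (log2 −1.53), with 144 and 77 fragments and a background of 2.69 and 8. The scaled ratio of fragments was 0.84 (0.63–1.11). Ptpn23, which encodes an endosomal phosphatase-like protein, had enrichments of 23.0 and 5.68 with 131 and 78 fragments, and Fes, a tyrosine kinase gene, 18.6 and 5.42 with 106 and 66. Zfp60, Necap2, Mertk, Gabbr1 and the promoter shared by Obsl1 and Inha made up the rest, with log2 ratios from −1.21 to −0.98. The background was the higher at the deletion summit in all 8, at 4 to 8 against 2.32 to 3, and again no interval of the fragment ratio excluded the median.

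Distal pairs at the ends of the range followed the same pattern. The highest lay over an exon of Rcbtb2, 20.3 kb from its nearest TSS, with enrichments of 14.1 and 29.9 (log2 1.65) and 208 and 160 fragments, and a background of 8 and 2.47. The next were in an intron of Boc, a Hedgehog co-receptor gene (6.79 and 13.1), near AI427809 (7.84 and 14.04) and near S100a3 (10.5 and 18.5). Ly86, Igf2bp2, Vps53 and a region 102 kb upstream of Fn1, the fibronectin gene, completed the highest 8. The pair near AI427809 alone had an interval above the median, with 76 and 72 fragments and a scaled ratio of 1.48 (1.06–2.07). The lowest distal pair lay 13.6 kb upstream of B4galnt4, with enrichments of 29.3 and 8.49 (log2 −1.22) and 159 and 91 fragments. Regions near Ttyh3, the immediate early gene Nr4a1, Nxn, Med21, Alg14, Gm5148 and Rfx8 had log2 ratios from −1.14 to −0.96, and none of these 8 had an interval that excluded the median.

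Fragments picked out other places. A peak in an intron of Tgfbr3, the gene of the TGF-β co-receptor betaglycan, had 35 fragments in WT and 46 in the deletion library, a scaled ratio of 2.06 (1.30–3.29). At the promoter of Nfyb, a subunit of the CCAAT-binding factor NF-Y, the counts were 39 and 44, or 1.77 (1.12–2.79), and at the promoter shared by Sec24a and Sar1b, both of COPII vesicle transport, 43 and 48, or 1.75 (1.13–2.70). At the other end, a peak near Klhdc4 had 143 and 54 fragments, or 0.59 (0.42–0.81), and the promoter of the Golgi protein gene Golga4 had 86 and 33, or 0.60 (0.39–0.91). The promoters of Gfod1 (102 and 41) and of Pex19 (124 and 51), a peroxisome biogenesis gene, followed. These were picked as the ends of 10251 pairs, so their intervals describe counting and are no test.

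The strongest WT peaks were among the best kept. The promoter of Atp6v0c, a subunit of the vacuolar proton pump, had the highest enrichment, 65.0 in WT and 57.6 in the deletion library, with 354 and 300 fragments and a scaled ratio of 1.33 (1.13–1.55). Zfp335 followed with 63.7 and 50.7, and 347 and 264 fragments. A distal peak 32.8 kb from the TSS of A830005F24Rik had 61.5 in WT. It met 4 deletion peaks, of which the leading one had 50.1 and 2 others had 8.89 and 6.79, so that log2 ratios of 0.27, −2.22 and −2.61 came from a single WT summit.

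The ratio varied with the height of the pair. Pairs were put into 20 classes by their mean enrichment. The median scaled log2 ratio of one-to-one pairs was 0.30 in the lowest class, −0.03 in the tenth and 0.13 in the highest, and by fragments 0.23, −0.03 and 0.14. The lowest classes hold only those weak peaks whose partner passed the caller too. In the highest class, with a median enrichment of 41.9 in WT, the deletion peaks were thus 0.14 above the median ratio on the log2 scale in fragments. Promoters made up 10.3% of the lowest class and 88.1% of the highest.

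**Figure D2:**
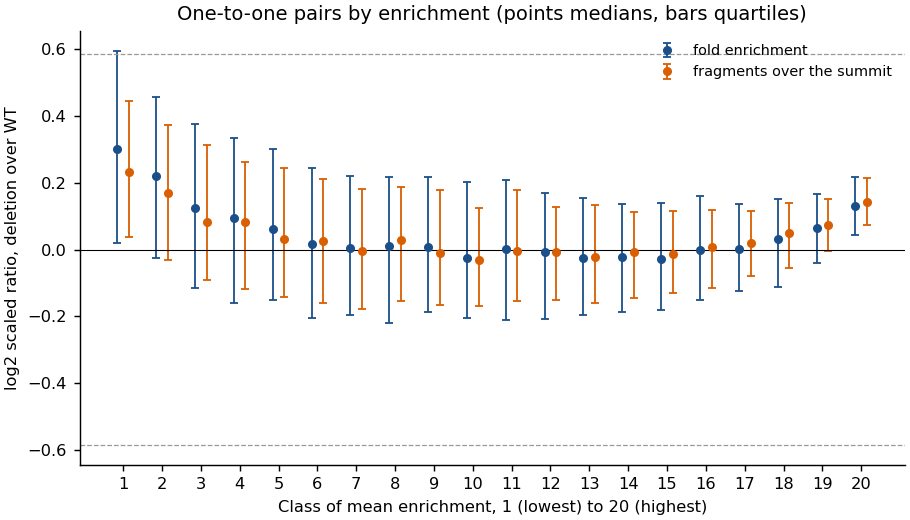
Scaled log2 ratio of deletion to WT for one-to-one pairs in 20 classes of mean enrichment (x axis, from low to high), by enrichment and by fragments, with points for medians, bars from the lower to the upper quartile and dashed lines at 1.5-fold. The medians run from 0.30 in the lowest class through −0.03 in the tenth to 0.13 in the highest by enrichment.

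Promoter pairs, in which a peak reached within 1 kb of a TSS, numbered 10527, and distal pairs 13998. Promoters had a median enrichment of 19.5 in WT and 11.5 in the deletion library, with 124 and 69 fragments, and distal pairs had 8.52 and 5.41, with 53 and 31 fragments. Their median scaled log2 ratios were −0.00 and 0.00. More distal pairs were higher, at 6.62% against 2.63% of promoters, and 10.2% of distal pairs and 12.1% of promoter pairs were lower. By fragments, 3.14% of distal and 0.722% of promoter pairs were higher, and 8.49% and 10.8% were lower. Among one-to-one pairs, 7.9% of distal and 2.81% of promoter pairs were higher, and 2.84% and 2.08% were lower. By fragments, 4.08% and 0.725% of them were higher, and 0.727% and 0.531% lower. The gap moved with the height of the peaks. Within the 20 classes of enrichment, the share of higher pairs was larger among distal pairs in 8 of 20, and the share of lower pairs in 6 of 20. In the lowest class, which held 259 of the 728 higher distal one-to-one pairs (35.6%), 27.6% of distal and 12.8% of promoter pairs were higher. With scaling within classes, 5.19% of distal and 3.002% of promoter pairs were still higher. Distance from the nearest TSS made little difference, since 6.35% to 7.42% of distal pairs were higher in every bin from under 10 kb to over 500 kb. The median log2 ratio of single chromosomes ranged from −0.02 to 0.01 over the 19 compared.

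Deletion peaks were also narrower, and one-to-one pairs kept more of their width at promoters. The median ratio of widths among one-to-one pairs was 0.771, with 0.821 at promoters (1313 bp in WT and 1036 bp in the deletion library) and 0.704 at distal pairs (863.5 and 493 bp). Relative to the median of all pairs, 7401 pairs were narrower past 1.5-fold (30.2%) and 1417 were wider (5.78%). Among one-to-one pairs the counts were 1907 (11.3%) and 1244 (7.35%). The width of a peak is the stretch over the caller's threshold, so it moves with the height of the signal.

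The broadest one-to-one domains had nearly equal widths in both libraries, in a set that leaves out the broad WT peaks that broke. The domain over Hoxc6 and Hoxc5, homeobox genes of positional identity, was 19178 bp wide in WT and 18917 bp in the deletion library, with 298 and 234 fragments. That over Meis1, a Hox cofactor gene, was 14661 and 14241 bp, and one in Myh9, the gene of a nonmuscle myosin heavy chain, 11959 and 10979 bp. The pair that widened most was at S100a6, 303 bp in WT and 554 bp in the deletion library, followed by Opn3 (325 and 542 bp) and a region 64.6 kb upstream of Epcam (787 and 1120 bp). The greatest narrowing was in a peak in Trak1, of 1314 bp in WT and 231 bp in the deletion library, although its fragments had a scaled ratio of 1.07 (0.69–1.66). Peaks near Gm8730 (2512 and 444 bp) and Phf17 (1468 and 285 bp) came next.

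Summits stayed in place in one-to-one pairs. Their median distance was 46 bp, with 32 bp at promoters and 65 bp at distal pairs, and 53.1% lay within 50 bp. Summits over 500 bp apart were found in 560 one-to-one pairs (3.31%) and in 4341 of all pairs (17.7%). The largest distances were in broad peaks with fragment ratios near the median. At Tk1, the thymidine kinase gene, the summits were 3418 bp apart in peaks of 5173 and 4916 bp, with 126 and 77 fragments. At Tram2 they were 3313 bp apart and near Cpa1 3209 bp, with scaled fragment ratios of 0.96, 1.11 and 1.06 in the same order, although the enrichment ratio near Cpa1 was 0.729.

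At promoters the position relative to the TSS was the same in both libraries. In 6638 one-to-one pairs with 1 protein-coding gene, the median summit lay 193 bp downstream of the TSS in WT and 193 bp downstream in the deletion library, with quartiles of 115 and 286 bp and of 113 and 291 bp. It was downstream in 81.4% of pairs in either library (5403 in WT and 5406 in the deletion library), and on the same side in 6407 pairs (96.5%). Of the others, 114 moved from downstream to upstream and 117 the opposite way. The deletion summit was nearer to the TSS in 3305 pairs, farther in 3263 and on the same base in 70.

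**Figure D3:**
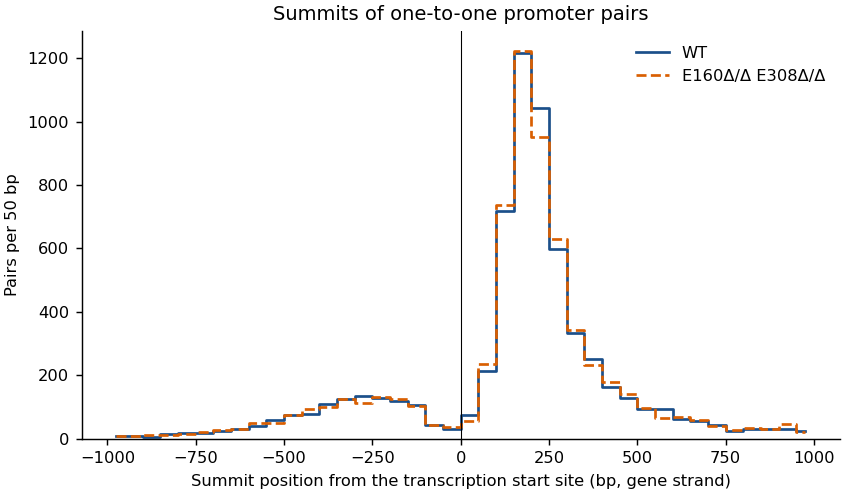
Position of the summit relative to the TSS (x axis, bp, downstream positive) in 6638 one-to-one promoter pairs with 1 gene, as the number of pairs (y axis) per 50 bp in each library. Both curves lie over each other, with a median of 193 bp downstream.

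Cartilage genes were examined in 5 lists of 103 genes, for matrix, transcription factors, growth plate signalling, sulfation of glycosaminoglycans, and hypertrophy. A promoter pair was found for 63 of them. For 6 genes only the WT library had a promoter peak (Nkx3-2, Runx3, Hif1a, Dlx6, Spp1 and Panx3), 33 had a promoter peak in neither, and Mia was not matched to the annotation. Of the 19305 genes looked up in the comparison with replicate 2 below, 9797 had a promoter peak in WT and 9247 in the deletion library. A peak in WT alone was thus not particular to cartilage genes, and its share over all genes was not counted. The genes had 428 pairs, 101 at promoters and 327 distal, assigned by the nearest TSS. Their median scaled log2 ratio was −0.05, beside 0 for all pairs, with 17 higher (4.91% of all pairs were) and 73 lower (11% of all pairs). Over their 244 one-to-one pairs the median was 0.04, beside 0.05 for all one-to-one pairs, with 13 higher and 5 lower (5.58% and 2.5% of all one-to-one pairs). By fragments, 8 of the 244 were higher and 3 lower (2.55% and 0.638% of all one-to-one pairs). Over the 428 pairs the interval of the fragment ratio lay above the median of all pairs in 4 and below it in 51. Among the 326 leading pairs it lay above in 4 and below in 1, beside 1.66% and 0.643% of all leading pairs.

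The leading promoter pairs of the cartilage genes, 67 in all, had a median scaled log2 ratio of 0.01 and an SD of 0.28. The leading partner is the highest of its WT peak by construction, so pieces are left out here. By enrichment 2 were higher and 0 were lower past 1.5-fold (3.03% and 2.06% of all leading promoter pairs), and by fragments 0 and 0 (0.829% and 0.652%). Over all 101 cartilage promoter pairs, 30 were lower by enrichment (29.7%, beside 12.1% of all promoter pairs) and 25 by fragments (24.8%, beside 10.8%). All 30 and all 25 were among the 34 pairs that were not the leading partner (33.7%, beside 14.1% of all promoter pairs), in WT peaks that were broad, with a median over the 101 pairs of 3439 bp against 1535 bp for all promoter pairs. With single libraries there is no test behind these counts. The interval of the fragment ratio lay above the median of all pairs at Bmpr1a and Tgfbr2 and below it at none, beside 2.15% and 0.586% of all leading promoter pairs. Against the median of the leading promoter pairs, 0.659 in place of 0.639, it lay above at Bmpr1a alone. Bmpr1a, a BMP receptor gene, had 269 fragments in WT and 230 in the deletion library, a scaled ratio of 1.34 (1.12–1.60). Tgfbr2, the type II TGF-β receptor gene, had 270 and 212, or 1.23 (1.02–1.48). The other leading pairs with an interval off the median were distal and weak. A peak 194 kb upstream of Tgfbr2 had 21 and 26 fragments, one 10.2 kb downstream of the Pth1r TSS had 21 and 28, and one 430 kb upstream of Trps1 had 57 and 19, a ratio of 0.52 (0.29–0.89).

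**Figure D4:**
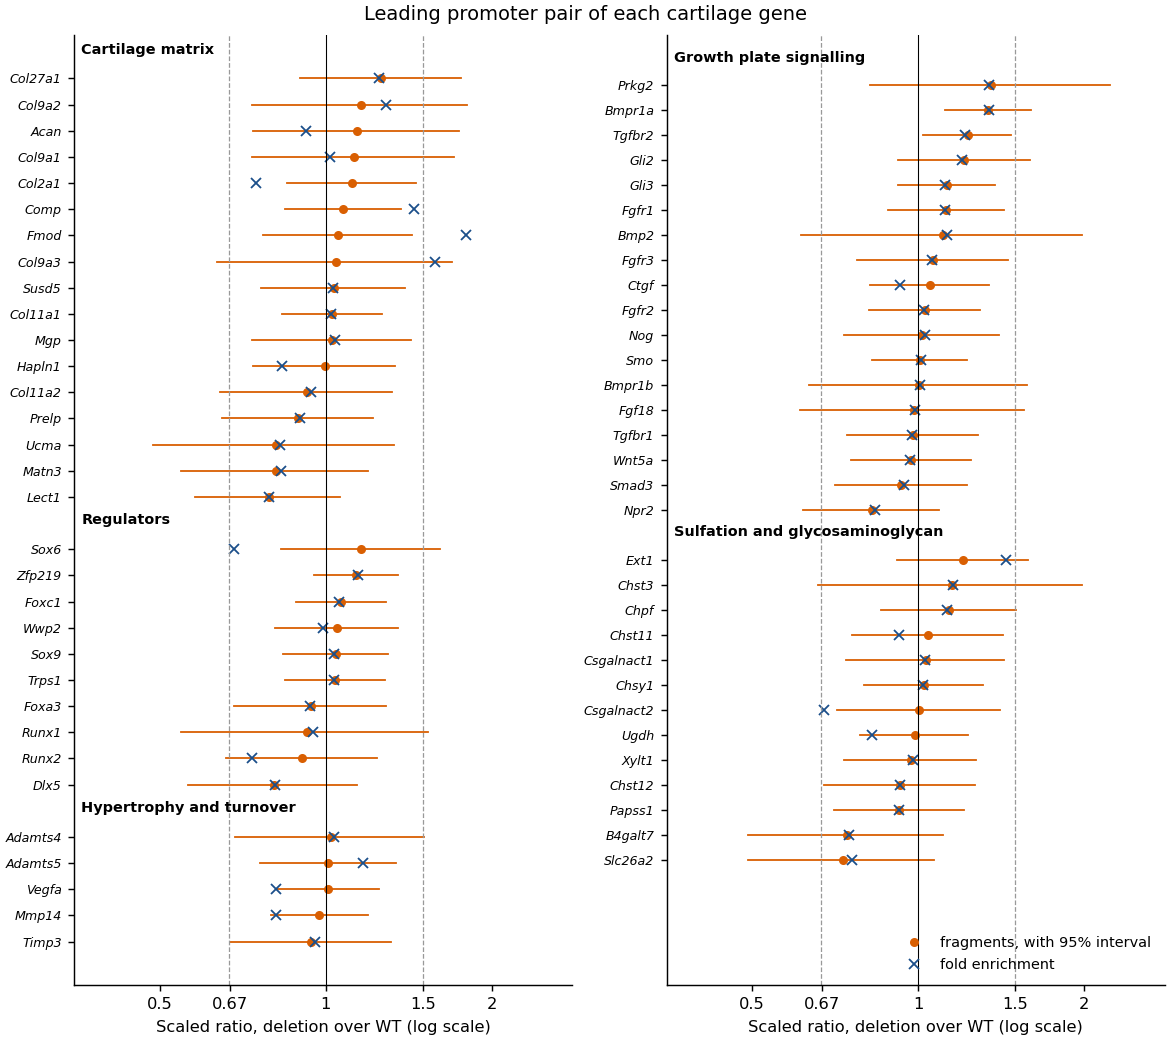
Scaled ratio of deletion to WT fragments (x axis, log scale) at the leading promoter pair of each cartilage gene, with points for the ratio, bars for the exact 95% interval, which covers counting error only, crosses for the scaled ratio of enrichment and dashed lines at 1.5-fold. The bars of Bmpr1a and Tgfbr2 lie wholly above 1, the median of all pairs, and none lies wholly below it.

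Sox9 itself, 1 of 10 regulators with a promoter pair, had an enrichment of 39.2 in WT and 27.4 in the deletion library, with 213 and 142 fragments. Its scaled log2 ratio was 0.05 and its scaled ratio of fragments 1.04 (0.84–1.30), so the promoter of the gene whose enhancers were removed lay near the median of all pairs. In classes 19 and 20 of mean enrichment, WT enrichments had medians of 32.6 and 41.9. The median log2 ratios of their one-to-one pairs were 0.06 and 0.13 by enrichment, and 0.07 and 0.14 by fragments. The WT peak covered 8247 bp and the leading deletion peak 6611 bp, and both summits lay downstream of the TSS, 35 bp apart. Downstream of it, within the same WT peak, the deletion list had 2 further pieces with 30 and 24 fragments. Sox6 was the lowest regulator by enrichment, 11.8 and 5.42 (log2 −0.55), but had 89 and 66 fragments, a ratio of 1.16 (0.83–1.61), and a background of 3.65 and 7. Sox5 had no promoter pair and 9 distal ones, 576 to 735 kb from its TSS, the strongest with 142 and 83 fragments. Pitx1, which encodes a homeodomain factor of hindlimb development, had no pair.

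Other regulators spread around the median. Zfp219, a Sox9 cofactor gene, was the highest with 314 and 228 fragments (log2 0.19 by enrichment), and Foxc1 followed with 283 and 193 (log2 0.08). Runx2, the regulator of hypertrophy and bone formation, had 114 and 66 fragments (log2 −0.44), and Dlx5 had 99 and 51 (log2 −0.31), with a ratio of 0.81 (0.56–1.14). The lowest promoter pairs of this list were pieces, at log2 −3.16 and −2.80 in the WT peak of 10654 bp over Trps1 and at −3.15 in that of 12388 bp over Foxc1. The leading partners in the same WT peaks had log2 ratios of 0.05 at Trps1 and 0.08 at Foxc1.

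Matrix genes, of which 17 had a promoter pair, showed the same split of enrichment and fragments. Col2a1 had an enrichment of 25.1 in WT and 12.7 in the deletion library (log2 −0.42), with 136 and 97 fragments and a ratio of 1.12 (0.85–1.46), and its background was 2.32 and 4. Fmod, the fibromodulin gene, was the highest, 11.0 and 13.3 (log2 0.85), with 107 and 72 fragments, a ratio of 1.053 (0.77–1.43) and a background of 5 and 2.55. Col9a3 followed with 5.65 and 6.02 (log2 0.66) and 45 and 30 fragments. These 2 are the cartilage promoters that were higher by enrichment. Comp, a pentameric matrix glycoprotein, had 21.2 and 20.7 (log2 0.54), with 173 and 119 fragments.

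The remaining matrix genes were near the median in fragments. Acan had 55 and 40 fragments, a ratio of 1.14 (0.74–1.74), Col9a1 57 and 41 (1.13; 0.73–1.71), Col11a1 233 and 153 (1.03; 0.83–1.27) and Col11a2 88 and 52 (0.92; 0.64–1.32). Hapln1, the link protein that ties aggrecan to hyaluronan, had 121 and 77 (1.00; 0.74–1.34). The lowest by fragments were Lect1, the chondromodulin gene, with 135 and 68 (0.79; 0.58–1.06), and Matn3, the matrilin gene, with 81 and 42 (0.81; 0.55–1.19), and their intervals included the median. Pieces of broad peaks gave the lowest enrichment ratios, −2.07 and −1.66 at Prelp, whose leading pair had 114 and 65 fragments, and −1.69 at Comp.

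Signalling, sulfation and hypertrophy genes gave no promoter past 1.5-fold among their leading pairs. In the signalling list, the highest were Prkg2, a cGMP-dependent kinase gene, with 37 and 32 fragments (log2 0.43 by enrichment), Bmpr1a at 0.43, and a weak second promoter peak of the FGF receptor gene Fgfr3 with 29 and 19 (log2 0.33). Its lowest pairs were pieces of the WT peaks at Wnt5a, Tgfbr1 and Fgf18, at log2 −2.29, −0.80 and −0.77, where the leading partners had −0.05, −0.04 and −0.02. Among sulfation genes, Ext1, a heparan sulfate polymerase gene, was the highest with 126 and 97 fragments (log2 0.53), and Chst3 (34 and 25) and Chpf (124 and 90) followed. The lowest were pieces at Chpf, Xylt1 and Chst11, at −2.11, −1.58 and −1.21. The sulfate transporter gene Slc26a2 had 88 and 41 fragments, a ratio of 0.73 (0.49–1.07), the lowest of the leading cartilage promoters by fragments. Adamts5, an aggrecanase gene, was the highest of 5 hypertrophy and turnover genes with 130 and 84 fragments (log2 0.22), followed by Adamts4 (69 and 45) and Timp3 (98 and 59). Vegfa, with 225 and 145 (log2 −0.30), also gave the lowest piece of that list at −2.04, and a piece at Timp3 had −0.74.

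Lists for other tissues were set beside these. Of the defining chondrocyte genes, 9 of 10 had a promoter pair, all but Sox5. So did 7 of 7 fibroblast and connective tissue genes, 1 of 4 osteoblast genes (Ifitm5) and 1 of 3 adipocyte genes (Cebpa), and 0 of 5 each for skeletal muscle, endothelium and blood, of which the blood gene Spi1 was not matched to the annotation. Connective tissue genes were therefore acetylated beside cartilage genes in both libraries of cultured rib cells, and the part of other cell types in any ratio was not tested. The connective tissue list had 93 one-to-one pairs with a median of 0.02, 5 higher and 3 lower, and the list of AP-1 and immediate early genes 62 with a median of 0.05, 6 higher and 2 lower. Proliferation genes had 25 with 0.04, 2 higher and 0 lower, housekeeping genes 23 with 0.10, 2 higher and 0 lower, and osteoblast genes 14 with 0.15, 3 higher and 1 lower. The endothelial list had 6 one-to-one pairs with a median of −0.27, adipocyte genes 4 with −0.17, muscle genes 1 and blood genes 0. These stand beside 0.05 for all one-to-one pairs, of which 5.58% were higher and 2.5% lower.

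In these lists too, several promoter pairs far from the median by enrichment were close to it by fragments. Col1a1, the type I collagen gene that marks fibroblasts and bone, had 36.8 in WT and 14.1 in the deletion library (log2 −0.82), with 200 and 130 fragments, a ratio of 1.02 (0.81–1.27), and a background of 2.32 and 5. Col5a2 had 32.8 and 13.1 (log2 −0.76) with 215 and 141 fragments, and the ribosomal protein gene Rps18 32.5 and 12.7 (log2 −0.79) with 217 and 137. By gene, from the highest peak within 1 kb of the TSS, ratios were scaled by their own median (0.693 in place of 0.674). On that scale Col6a3 was lower than these by enrichment, with 31.5 and 11.2 (log2 −0.96). Col1a1 had −0.86, Rps18 −0.83 and Col5a2 −0.80 on it, and the fragments of Col6a3 are not given here. On the higher side, Polr2a, the gene of the large subunit of RNA polymerase II, had 18.7 and 23.4 (log2 0.89) with 184 and 121 fragments, a ratio of 1.03 (0.81–1.30), and Twist1 had 22.1 and 23.4 (log2 0.65) with 181 and 121.

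The ends of each list separate pieces from whole peaks. The lowest promoter pair was a piece of a broad WT peak at Lox (log2 −3.24), Klf6 (−3.20), Actb (−2.50), Mcm6 (−1.40), Cebpa (−1.19) and Tnfrsf11b (−1.06), where the leading partners had 0.08, 0.10, 0.12, 0.06, 0.45 and −0.04 in the same order. The highest was Twist1 for connective tissue, Fosl1 (36 and 24 fragments, log2 0.67) for immediate early genes, Pcna (64 and 27, log2 0.51) for proliferation, Polr2a for housekeeping and Lpl (44 and 28, log2 0.60) for adipocytes. Pcna thus lay above the median by enrichment, short of 1.5-fold, and had a fragment ratio of 0.66 (0.40–1.0505), with a background of 6 in WT and 2.36 in the deletion library. The only endothelial promoter pair, at Erg, had 65 and 29 fragments (0.70; 0.43–1.098).

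Around Sox9, from 1.5 Mb upstream to 0.5 Mb downstream, 14 WT peaks formed 16 pairs, and 21 WT peaks and 1 deletion peak had no partner. The 7 pairs upstream had a median scaled log2 ratio of 0.25 by enrichment and by fragments, and the 6 distal pairs downstream 0.03 and 0.06. All 7 upstream WT peaks were weak, with 28 to 42 fragments. By mean enrichment they fell into the classes from the lowest to the eighth, 2 of them into the lowest, and the medians of all one-to-one pairs in those classes ran from 0.00 to 0.30 by enrichment and from −0.00 to 0.23 by fragments. The upstream pairs lay above the median of their own class in 6 of 7 by enrichment and in 5 of 7 by fragments. The upstream pair with the highest ratio lay at −660 kb, with an enrichment of 5.55 in WT and 6.21 in the deletion library (log2 0.73) and 35 and 31 fragments, a ratio of 1.39 (0.83–2.31). The pair at −1019 kb had 3.96 and 4.31 (log2 0.69), with 31 and 21 fragments and a ratio of 1.06 (0.58–1.91). These were the 2 higher pairs by enrichment (7.9% of all distal one-to-one pairs were), and 0 of the 7 were higher by fragments (4.08%). The pair at −1019 kb was in the lowest class, where 27.6% of distal one-to-one pairs were higher by enrichment. The pair at −660 kb was in class 5, where 6.76% were.

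The other upstream pairs were small in both libraries. They lay at −1098 kb (42 and 32 fragments), −1093 kb (28 and 24), −946 kb (41 and 27), −194 kb (29 and 22) and −193 kb (31 and 22), with fragment ratios of 1.19, 1.34, 1.03, 1.19 and 1.11 and intervals that all included the median. Downstream, pairs lay at 350 kb (55 and 40 fragments), 351 kb (55 and 34), 366 kb (31 and 25), 391 kb (68 and 42), 419 kb (50 and 33) and, in an intron of Slc39a11, 483 kb (46 and 31). Their fragment ratios ran from 0.97 to 1.26, and no distal pair of the region had an interval that excluded the median.

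**Figure D5:**
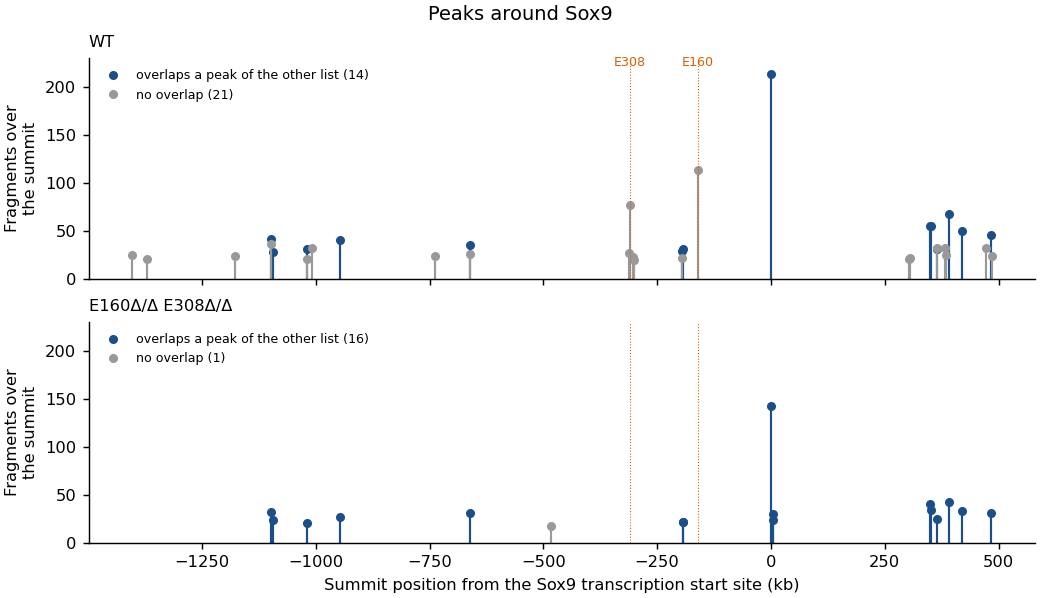
Fragments over the summit (y axis) of WT and deletion peaks by distance from the Sox9 TSS (x axis, kb), with paired and unpaired peaks marked apart. The Sox9 promoter stands out with 213 fragments in WT and 142 in the deletion library, the upstream pairs have 28 to 42 in WT, and the WT peaks at E160 (114) and E308 (77) have no deletion partner.

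The other mm9 lists of the series hold peaks at many of the pairs. Of the one-to-one pairs, 71.7% overlapped an H3K27ac peak of chondrocyte replicate 1, 88.2% an H3K4me2 peak of chondrocytes and 60.2% an H3K27ac peak of dermal fibroblasts. At promoters the shares were 85.1%, 97.5% and 89.4%, and at distal pairs 60.5%, 80.5% and 35.7%. Distal pairs that were higher by enrichment were weak, with a median of 4.49 in WT against 7.79 for all distal one-to-one pairs, and 49.5% of them had a replicate 1 peak, 76.0% an H3K4me2 peak and 21.7% a fibroblast peak. Distal pairs that were lower had a median of 10.02 in WT and shares of 64.5%, 80.2% and 40.5%. The Sox9 promoter pair overlapped an H3K4me2 and a fibroblast peak and no peak of replicate 1.

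Promoter enrichment was also read in a separate chondrocyte library, replicate 2, which is on the GRCm38 build and was matched by gene. A promoter peak in WT, deletion and replicate 2 was found for 8004 of the 19305 genes named in both annotations. In these, the deletion to WT ratio had an SD of 0.27 on the log2 scale, with 4.65% past 1.5-fold of its median. The replicate 2 to WT ratio had an SD of 0.54 with 25.2% past the fold, and replicate 2 to deletion 0.53 with 24.5%. By fragments the SDs were 0.19, 0.44 and 0.43, beside counting SDs of 0.22, 0.25 and 0.27. The 3 ratios share libraries, so they are set side by side only. The lists were made separately, with replicate 2 having another build, gene annotation, threshold and scaling. Its larger spread mixes these with differences between libraries, so it gives no yardstick for the effect of the deletion. At 56 cartilage genes, the deletion to WT ratio ran from −0.61 to 0.81 with an SD of 0.29, and the replicate 2 to WT ratio from −1.39 to 1.81 with an SD of 0.64.

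Single genes show the difference in range. Acan had an enrichment of 8.58 in WT, 5.34 in the deletion library and 14.8 in replicate 2. Col2a1 had 25.1, 12.7 and 15.9, Sox9 39.2, 27.4 and 19.4, and Lect1 24.96, 13.3 and 18.3. Relative to the median promoter, Acan was thus 1.81 higher on the log2 scale in replicate 2 than in WT, and 0.16 lower in the deletion library, a log2 ratio of −0.16. Sox9 was at 0.01 in both comparisons with WT.

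Sequence at the summits set promoter and distal pairs apart and did little to tell higher from lower pairs. The 300 bases around the WT summit had a median GC content of 66.7% at promoters and 49.7% at distal pairs. GGGCGG was found in 55.4% of promoter and 11.5% of distal windows, while ACAATG was in 5.10% and 12.3%, TGANTCA in 3.002% and 8.54%, TGTGGT in 9.40% and 18.7%, and CCAAT in 15.7% and 26.0%. Among distal one-to-one pairs, ACAATG was in 12.6% of the higher (95% interval, 10.3–15.3), 9.92% of the lower (6.58–14.2) and 11.9% of all. TGANTCA was in 9.75%, 7.63% and 8.64% in the same order, and TGTGGT in 20.2%, 19.5% and 18.8%. GGGCGG was in 7.01% of the higher and 13.0% of the lower against 12.2% of all, and in 6.55% of all distal one-to-one pairs with under 50 WT fragments, the range in which most of the higher pairs fall. Across classes of GC content, the median scaled log2 ratio of fragments of one-to-one pairs ran from 0.04 to 0.08.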

How the data were processed

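H3K27ac ChIP-Seq peak lists of WT and E160Δ/Δ E308Δ/Δ rib chondrocytes were used as deposited. Per the submitters' processing notes and the study's methods, fastp trimmed the reads, Bowtie2 2.4.4 aligned them to mm9, and MACS2 2.2.4 called peaks per library against input reads. The deposited ratio in each list is the fold enrichment at the summit, the authors' score is 10 times the −log10 q, and the deposited −log10 p and q-values belong to the same summit. Replicate 1, H3K4me2 and fibroblast lists hold only a position and a score. Replicate 2 lies on GRCm38 and was matched by gene symbol. The input library was not analysed here.

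The members and gene lists were chosen with earlier results of these data known. Peaks overlapping by at least 1 bp on chromosomes 1 to 19 were paired. Whole numbers of fragments over the summit and the local background were solved from enrichment and −log10 p under the caller's Poisson model, to within 0.01 of the −log10 p. The depth of each library, as reads, is not given. Ratios were divided by the median over all pairs, with no statistical test, because each genotype had 1 library. Genes were the 22380 protein-coding genes of GENCODE vM1 on mm9, a promoter pair had a peak within 1 kb of a TSS, and other pairs were assigned to the nearest TSS. Intervals are exact binomial (Clopper-Pearson, 95%). The solution and the ratios were tested on simulated data. Named were the 3 highest and 3 lowest promoter pairs of each cartilage list and 11 cartilage genes, the 8 highest and lowest promoter and distal one-to-one pairs with a −log10 q of at least 10 in both lists, the 5 pairs highest in WT, the 3 widest and the 3 most changed in width or summit, every pair of the Sox9 region, and the ends of each comparison list, of which 1 is not reported here. Pairs picked by fragments, the pairs outside the fragment interval and the WT peak with 8 partners were added after their values were seen. Alternatives were one-to-one pairs, reciprocal overlap, a stricter q-value, no scaling, scaling within classes, a 2-fold limit, fragments, and other promoter and summit limits, and, chosen after seeing the data, the leading partner and every transcript start. Sequences were read from the mm9 genome. The computations ran in Python 3.11.15 (scipy 1.17.1, numpy 2.4.6, pandas 2.3.3), and the plots were drawn with matplotlib 3.10.9.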

Additional observations from a re-analysis of the deposited data

Results flagged for a closer look

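Pairs outside the compared chromosomes were counted but enter no comparison above, and this signal in unused data is why they are listed. Chromosome X held 522 pairs with a median scaled log2 ratio of −0.08, of which 1.92% were higher and 11.5% lower past 1.5-fold. Its 371 one-to-one pairs had a median of −0.02, below the 0.03 to 0.08 of the 19 autosomes, and of −0.02 by fragments, where the autosomes had 0.04 to 0.07. The sex of the animals behind each library is not given in the sources used here, and the cause of the lower median was not tested.

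Unplaced sequence held 14 pairs with a median of 0.11 and a range from −0.21 to 0.23. Chromosome Y held 3 pairs.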

How the results depend on the processing

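With 1 library a side no result has a test, and direction and size were followed under each alternative. Of 131 alternative values, 71 stayed within the limits set for the main value, 60 moved and 0 were reversed. Most are counts or percentages, which cannot change sign, so the 0 says nothing about their order. Lower pairs outnumbered higher ones in the main result (2704 and 1203). They did not in one-to-one pairs, at 50% reciprocal overlap or in leading pairs. In these sets and without scaling, the share of lower pairs was larger at distal than at promoter pairs, opposite to the main result. The other settings with both values kept the main order. With one-to-one pairs scaled by their own median, 744 were higher, 555 lower, 2863 narrower and 560 had summits over 500 bp apart, and 2.17% of promoters were higher. With 50% reciprocal overlap 15368 pairs were left, 565 higher and 505 lower, with 2.16% of promoter and 5.30% of distal pairs higher. At a −log10 q of at least 5 in both lists, 5.38% of distal pairs were higher. Without scaling, 86 were higher, 11746 lower and 12574 narrower, with 0.180% of promoter and 0.479% of distal pairs higher and a cartilage median of −0.62 on the log2 scale. Scaling within 20 classes gave 3.002% of promoter and 5.19% of distal pairs higher. A 2-fold limit gave 181 higher and 1439 lower pairs, and 0.389% and 1.00%. By fragments, 516 were higher, and 0.722% of promoter and 3.14% of distal pairs were. The cartilage median was −0.12 over promoter pairs only. Summits over 1000 bp apart numbered 1640. With the leading partner of each WT peak, scaled by its own median and chosen after seeing the data, 653 were lower, 4583 narrower and 1312 had summits apart. Each alternative takes other pairs, another median or another limit, and the part of these in each change was not tested. No paired analysis was possible because each genotype had 1 library. Depth limits single pairs: the interval of a one-to-one pair ran, at the median, from 0.663 to 1.49 times its ratio of fragments.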
